A study of Homo sapiens with 36 samples.

Results

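The p53 pathway was followed through 36 genes, namely the feedback regulators of the p53 protein and genes listed with the pathway and its targets. They were taken as the rows of the deposited gene count table that carry the listed symbols, 36 of 61805 named genes, and were read in all 12 groups of the series. RNA was sequenced from 36 libraries of human prostate cancer cells, 3 in each group. The title of the series points to a question about TRIM33, a ubiquitin ligase that acts at chromatin, and its part in androgen receptor transcription. LNCaP is an androgen-responsive line established from a lymph node metastasis of prostate cancer, and 42D is a descendant of LNCaP selected for resistance to the antiandrogen enzalutamide.

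The groups of 42D were sgT33-5 and NT3, and those of LNCaP were sgT33-5_MC_C2, sgT33-5_MC_F2, sgT33-5 and NT3, with the first pair of LNCaP names shortened to C2 and F2. Each line was given either 5 nM R1881, a synthetic androgen, or its vehicle DMSO for 6 h, and all of them had first been kept for 3 days in charcoal-stripped serum, which is poor in hormones. The labels do not explain the names of the lines. The title allows sgT33-5 to be taken for a TRIM33 guide RNA line and NT3 for its non-targeting control, and whether C2 and F2 are single clones is not stated. Separate cultures are not stated for the replicates, and p-values measure only the spread between these libraries, which may be technical.

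The p53 protein is a transcription factor that is held at a low level by MDM2, a ubiquitin ligase that marks it for degradation and is itself a p53 target. When DNA damage or other stress stabilises p53, it binds response elements made of a pair of decamers and raises genes for cell cycle arrest, DNA repair, metabolism and cell death.

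By role, the feedback regulators were MDM2, MDM4 and PPM1D. Genes of arrest and growth control were CDKN1A, CCNG1, CCNG2, PLK2, PLK3, BTG1, BTG2, GADD45A and GDF15. Genes of cell death and its control were BBC3, BAX, PMAIP1, FAS, TNFRSF10B, TNFRSF10C, AEN, PHLDA3, SUSD6, TP53I3, TP53INP1, TRIAP1 and EDA2R. DNA repair and nucleotide supply were covered by XPC, DDB2, POLH and RRM2B, and metabolism and mitochondria by SESN1, SESN2, TIGAR, FDXR and SPATA18. ZMAT3, an RNA-binding protein, and RPS27L, a ribosomal protein paralog, made up the rest.

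In the coordinates of the deposited table, on hg38, the genes that the results turn on most include PLK2 (ENSG00000145632) on chromosome 5 at 58453982 to 58460139, BTG1 (ENSG00000133639) on chromosome 12 at 92140278 to 92145846, BAX (ENSG00000087088) on chromosome 19 at 48954815 to 48961798, SESN1 (ENSG00000080546) on chromosome 6 at 108984309 to 109094846, PHLDA3 (ENSG00000174307) on chromosome 1 at 201464278 to 201469237, SPATA18 (ENSG00000163071) on chromosome 4 at 52051304 to 52097299, CDKN1A (ENSG00000124762) on chromosome 6 at 36676460 to 36687337 and MDM2 (ENSG00000135679) on chromosome 12 at 68808177 to 68845544. Each of these spans is a whole gene with its exons and introns.

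Promoters of 30 of the 36 genes, each running 250 bases before to 50 bases after an annotated transcript start, were found in the RefSeq table of GRCh38.p14. Some genes have several starts there, so these 30 genes had 42 windows, and a start can lie well inside the gene's span in the count table. Those of GADD45A, TNFRSF10B, TP53INP1, RRM2B, PHLDA3 and TNFRSF10C were not matched. The consensus decamer of the p53 response element was searched on both strands. It was present in at least 1 window of 7 of 30 genes (23.3%: AEN, DDB2, FAS, FDXR, PLK2, RPS27L and SESN1), against 8.06% of the 27305 genes in the table. By window it was in 16.7% of the 42, against 6.63% of all 35116. A full element, with a pair of decamers at most 13 bases apart, was found in 1 of the 30 genes, DDB2, and in 10 of all 27305 (0.0366%). The palindromic androgen receptor motif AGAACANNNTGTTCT was in none of the 30 and in 1 of all genes (0.00366%). The shorter AGAACA, which forms part of that palindrome, was in 3 of 30 (10%: EDA2R, FAS and XPC) and in 17.5% of all genes. These are exact matches of letters within the windows, so an element with a mismatch or outside them would be missed. Binding of a factor was not measured.

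Of these windows, 3 are shown, because DDB2 holds the full element and because PLK2 and SESN1 were among the genes that differed most between the LNCaP guide lines. They are written along the gene's strand with the decamers in capitals, for DDB2 at chr11:47214724-47215023 on the plus strand, PLK2 at chr5:58460037-58460336 on the minus strand and SESN1 at chr6:109008939-109009238 on the minus strand.
DDB2: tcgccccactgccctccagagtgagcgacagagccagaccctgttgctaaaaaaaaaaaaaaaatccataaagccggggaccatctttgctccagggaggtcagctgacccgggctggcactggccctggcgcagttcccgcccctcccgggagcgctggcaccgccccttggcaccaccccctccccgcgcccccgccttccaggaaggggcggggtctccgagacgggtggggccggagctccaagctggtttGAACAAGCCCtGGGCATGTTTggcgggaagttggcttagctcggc
PLK2: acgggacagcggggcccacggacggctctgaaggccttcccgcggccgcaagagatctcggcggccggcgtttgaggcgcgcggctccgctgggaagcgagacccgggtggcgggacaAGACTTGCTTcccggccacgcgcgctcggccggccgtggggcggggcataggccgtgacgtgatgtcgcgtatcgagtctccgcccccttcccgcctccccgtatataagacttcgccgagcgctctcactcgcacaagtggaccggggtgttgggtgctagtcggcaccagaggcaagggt
SESN1: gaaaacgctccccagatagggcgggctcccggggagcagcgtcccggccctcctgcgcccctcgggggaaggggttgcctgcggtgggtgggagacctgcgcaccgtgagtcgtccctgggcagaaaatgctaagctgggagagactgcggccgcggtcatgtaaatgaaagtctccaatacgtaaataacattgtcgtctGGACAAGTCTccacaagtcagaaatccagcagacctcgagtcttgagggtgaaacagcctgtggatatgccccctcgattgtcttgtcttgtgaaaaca
Positions are given from the transcript start of the window shown. The DDB2 decamers began 5 and 16 bases past that start, which is 1 of 2 in the table and lies 509 bases inside the gene's span. The single decamer began 132 bases before the start in PLK2 and 49 bases before it in SESN1. The SESN1 start is 1 of 3 and lies 85858 bases inside the span given above, and the windows of the other SESN1 starts held no decamer.

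Library totals were 13900744 to 19793268 counts. EDA2R, a receptor of the tumour necrosis factor family, had 0 to 8 counts per library and failed the filter on low counts, so 35 of the 36 genes were tested in each comparison. Levels are in CPM, that is counts scaled to a common library size by TMM, which is not corrected for gene length, so levels were compared between samples and not between genes. TRIM33 was lower in every guide line with DMSO, at 35.1 ± 1.5, 42.3 ± 0.897 and 47.8 ± 4.81 CPM in C2, F2 and sgT33-5, against 93.3 ± 3.8 CPM in NT3 of LNCaP (SD, n = 3). In 42D it was 57.3 ± 2.33 CPM in sgT33-5 and 84.4 ± 4.83 CPM in NT3. All 8 luminal prostate markers were above 1 CPM in every library, and all 5 leukocyte markers below 1 CPM. The 3 endothelial markers summed to 0.418 to 1.67 CPM in 42D and 7.92 to 22.8 CPM in LNCaP, nearly all of it VWF, while PECAM1 and CDH5 were at or near 0 (at most 0.127 and 0.121 CPM in any library). With DMSO, VWF averaged 8.19 CPM in C2, 12.5 CPM in F2, 16.2 CPM in sgT33-5 and 20.7 CPM in NT3 of LNCaP. The 6 fibroblast markers summed to 26.1 to 36.1 CPM in 42D and 23.1 to 38.8 CPM in LNCaP, mostly COL1A1, with COL1A2 at or near 0. Replicate 3 of sgT33-5 with DMSO and replicate 1 of sgT33-5 with R1881 in LNCaP had the lowest mitochondrial shares, at 2.14% and 2.4% of counts.

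RNA came from whole cultures, so fewer cells expressing a gene and less RNA per cell cannot be told apart. Across the 12 groups, PLK2 had the widest range of group means, 19.2-fold, with 87.8 CPM in 42D sgT33-5 with R1881 and 4.57 CPM in C2 with DMSO. PHLDA3 ranged 8.77-fold, GDF15 7.6-fold, TP53I3 6.13-fold, BTG1 5.6-fold and SPATA18 5.25-fold. CDKN1A and MDM2, which are widely used as p53 readouts, ranged 1.49-fold and 1.38-fold. XPC (1.12-fold) and MDM4 (1.2-fold) varied least. In the map of group means, the groups of 42D stand apart for PHLDA3, GDF15, SPATA18, TP53I3 and BTG2, and R1881 and DMSO alternate for PLK2, CCNG2, TNFRSF10B and TP53INP1.

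**Figure D1:**
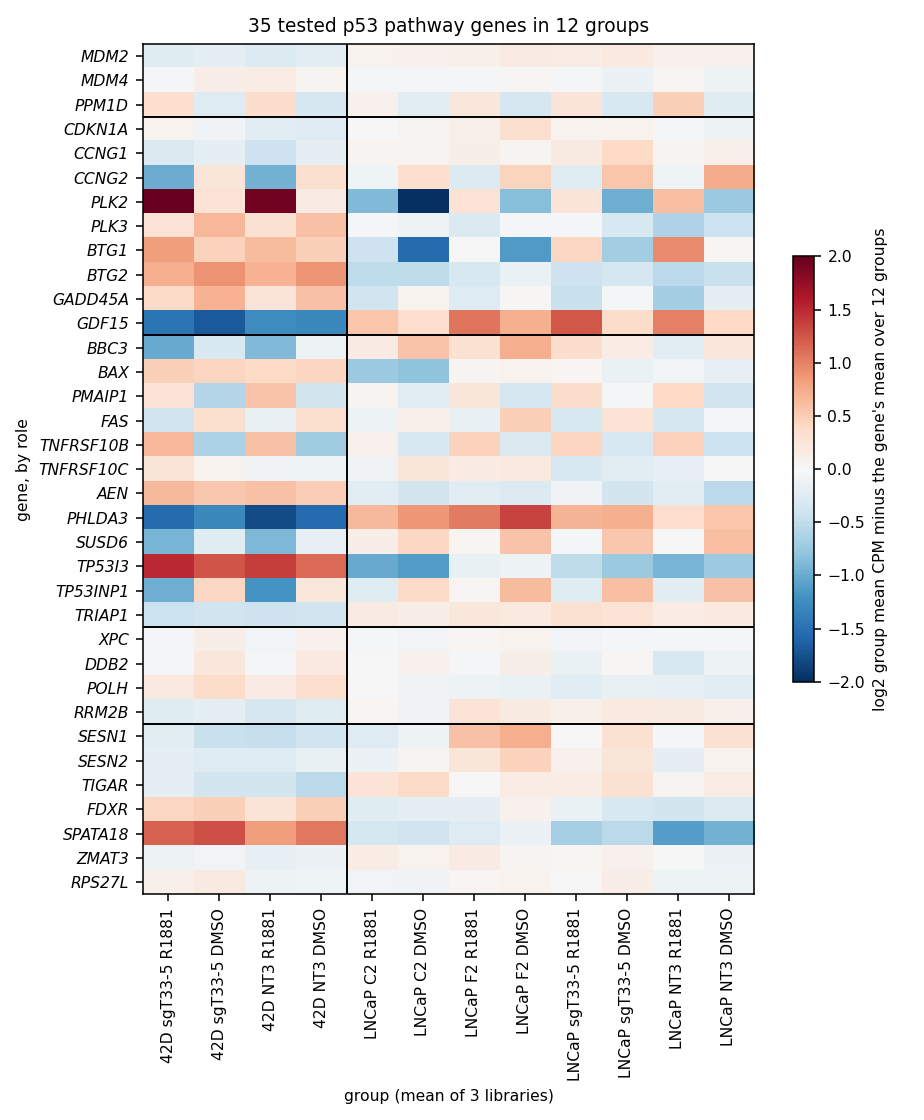
Group means of the 35 tested p53 pathway genes in 12 groups (columns, mean of 3 libraries), as log2 mean CPM minus the gene's mean over the 12 groups, with genes in rows ordered by role. PLK2 spans 4.57 to 87.8 CPM, while MDM2, MDM4 and XPC stay pale across all columns.

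R1881 moved a small set of pathway genes in the same direction in all 6 lines. MDM2 and CDKN1A were not called in the fit with the filter on low counts and no replicate block. With the replicate number as a block, CDKN1A was called in F2 (lower) and in 42D sgT33-5 (higher). Without the filter, CDKN1A was called in F2 (lower). TNFRSF10B, PLK2 and BTG1 rose in 6 of 6 lines. TP53INP1, CCNG2 and SUSD6 fell in 6 of 6. Each set is 8.57% of the 35 genes, where 2.64% of the 14417 genes tested in all lines rose in 6 of 6 and 1.17% fell in 6 of 6. With calls in at least 4 lines, PPM1D joined those that rose, giving 11.4% of the genes against 5.6% of all, while 8.57% fell against 3.38% of all. The DMSO libraries of each line were its own, so these 6 comparisons share no libraries. The lines are related, though, as 42D descends from LNCaP and C2 and F2 carry the sgT33-5 name. The LNCaP lines also shared 1 fit, as did the 42D lines. Changes are log2 fold changes with their standard error (SE), here of R1881 over DMSO, and a gene was called where the adjusted p of edgeR's quasi-likelihood test was under 0.05. A value in parentheses after a gene is of the same kind.

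PLK2, a polo-like kinase that p53 induces, had 92.5, 78.6 and 92.3 CPM with R1881 in 42D sgT33-5, against 26.4, 26.7 and 21.6 CPM with DMSO. In LNCaP NT3 it had 30.1, 32.2 and 30.5 CPM with R1881 and 12, 11.6 and 13.3 CPM with DMSO. In C2, where it was lowest, it had 10.8, 11.1 and 11.4 CPM with R1881 and 4.13, 5.02 and 4.57 CPM with DMSO. In every line the R1881 libraries lay above the DMSO libraries. PLK2 changed by 1.82 (SE 0.10, adjusted p = 3.32e-10) in 42D sgT33-5, 1.78 (SE 0.10) in 42D NT3, 1.27 (SE 0.14) in C2, 1.12 (SE 0.12) in F2, 1.23 (SE 0.12) in LNCaP sgT33-5 and 1.33 (SE 0.12) in LNCaP NT3, on the log2 scale.

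BTG1, an antiproliferative protein that recruits the mRNA deadenylation machinery, had 217, 201 and 198 CPM with R1881 in 42D NT3, against 189.6, 173 and 191 CPM with DMSO. In LNCaP NT3 it had 261, 246 and 258 CPM with R1881 and 137, 121 and 145 CPM with DMSO. The groups did not overlap in either line, but the step was small in 42D. BTG1 changed by 0.38 (SE 0.056, adjusted p = 1.64e-05) in 42D sgT33-5 and 0.17 (SE 0.056, adjusted p = 0.0269) in 42D NT3 on the log2 scale. In LNCaP it was 1.12 (SE 0.10) in C2, 1.12 (SE 0.10) in F2, 1.09 (SE 0.10) in sgT33-5 and 0.92 (SE 0.093) in NT3. The call in 42D NT3 was lost without DMSO replicate 2 (0.13, adjusted p = 0.137) and without R1881 replicate 1 (0.14, adjusted p = 0.122).

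TNFRSF10B, the death receptor DR5 for the ligand TRAIL, had 426, 421 and 458 CPM with R1881 in 42D NT3, against 169, 179 and 184 CPM with DMSO. In LNCaP NT3 it had 389, 401 and 403 CPM with R1881 and 207, 207 and 233 CPM with DMSO. Both pairs of groups were well separated. Its log2 fold change was 1.30 (SE 0.049) in 42D sgT33-5, 1.32 (SE 0.050) in 42D NT3, 0.39 (SE 0.057) in C2, 0.73 (SE 0.057) in F2, 0.74 (SE 0.057) in LNCaP sgT33-5 and 0.87 (SE 0.057) in LNCaP NT3. TNFRSF10C, its close paralog and a decoy receptor, stayed at 0.826 to 2.01 CPM in all libraries and was called in no line.

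PPM1D, the phosphatase WIP1 that damps p53 signalling, rose in 5 of 6 lines. It had 40.3, 40.1 and 41.3 CPM with R1881 in LNCaP NT3, against 24.5, 23.1 and 26.7 CPM with DMSO. The log2 fold change was 0.60 (SE 0.086) in 42D sgT33-5, 0.70 (SE 0.087) in 42D NT3, 0.55 (SE 0.089) in F2, 0.57 (SE 0.090) in LNCaP sgT33-5 and 0.70 (SE 0.090) in LNCaP NT3. In C2 it was 0.29 (SE 0.089, adjusted p = 0.0562), which missed the threshold.

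Of the genes that fell, TP53INP1, a stress protein that promotes p53 activity and autophagy, had 148, 154 and 146 CPM with R1881 in 42D NT3, against 386, 395 and 422 CPM with DMSO. In LNCaP NT3 it had 299, 311 and 282 CPM with R1881 and 514, 551 and 470.5 CPM with DMSO. All R1881 libraries lay below all DMSO libraries of the same line. Its log2 fold change was -1.40 (SE 0.051) in 42D sgT33-5, -1.41 (SE 0.051) in 42D NT3, -0.63 (SE 0.058) in C2, -0.61 (SE 0.058) in F2, -0.86 (SE 0.059) in LNCaP sgT33-5 and -0.79 (SE 0.059) in LNCaP NT3.

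CCNG2, a cyclin-like protein linked to growth arrest, had 72.1, 71.6 and 61.5 CPM with R1881 in 42D NT3, against 178, 159.9 and 155 CPM with DMSO, a log2 fold change of -1.24 (SE 0.13, adjusted p = 5.53e-05). It was -1.23 (SE 0.13) in 42D sgT33-5 and -0.83 (SE 0.11) in LNCaP NT3, and -0.43 (SE 0.11, adjusted p = 0.0275) in C2. SUSD6, a membrane protein induced by p53 after DNA damage, had 49.4, 44.9 and 51 CPM with R1881 and 81.7, 75.4 and 86.3 CPM with DMSO in 42D NT3. Its log2 fold changes in the 6 lines lay between -0.73 and -0.30. In C2, where both changes were smallest, each call was lost without DMSO replicate 2 or R1881 replicate 3. Without these, CCNG2 stood at -0.35 (adjusted p = 0.182) and -0.31 (adjusted p = 0.169). SUSD6 stood at -0.26 (adjusted p = 0.0558) and -0.26 (adjusted p = 0.0502). The CCNG2 call was also lost without DMSO replicate 1 or R1881 replicate 1.

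**Figure D2:**
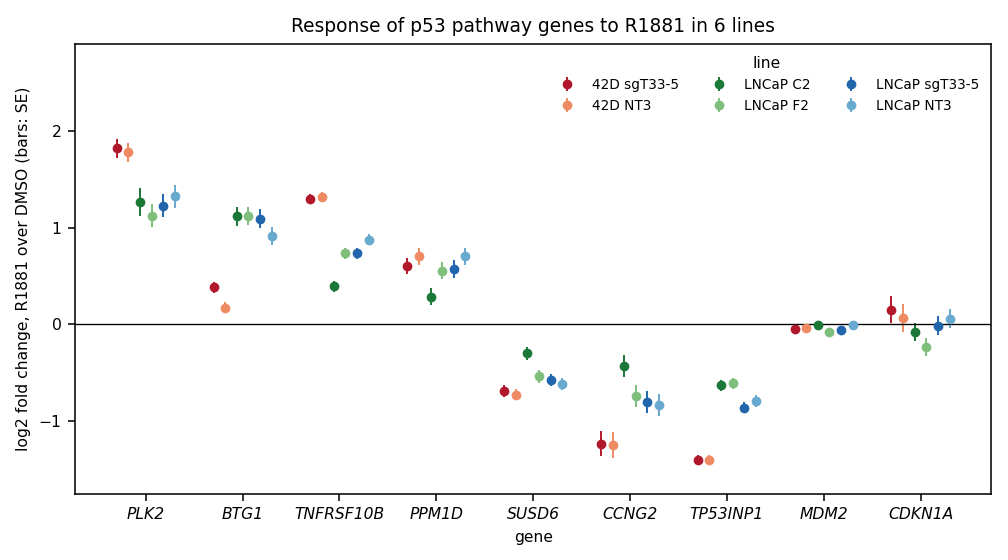
Log2 fold change of R1881 over DMSO (y axis, bars are SE) for 9 genes in 6 lines (colours), from 3 libraries a group. PLK2, BTG1, TNFRSF10B and PPM1D lie above 0 and SUSD6, CCNG2 and TP53INP1 below 0 in all lines. No point of MDM2 or CDKN1A passed the test in the fit shown, which filters low counts and has no replicate block.

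MDM2 was close to flat under R1881, with log2 fold changes of -0.047 (SE 0.039) in 42D sgT33-5, -0.032 (SE 0.039) in 42D NT3, -0.0093 (SE 0.041) in C2, -0.074 (SE 0.041) in F2, -0.056 (SE 0.041) in LNCaP sgT33-5 and -0.0059 (SE 0.041) in LNCaP NT3. CDKN1A, the cyclin-dependent kinase inhibitor p21, had 101, 119 and 92.1 CPM with R1881 in 42D NT3, against 92.6, 119 and 91.9 CPM with DMSO. In LNCaP NT3 it had 118, 123 and 112 CPM with R1881 and 104, 126 and 107 CPM with DMSO. These groups overlapped. The CDKN1A log2 fold change was 0.068 (SE 0.14) in 42D NT3, 0.061 (SE 0.10) in LNCaP NT3 and -0.24 (SE 0.094, adjusted p = 0.134) in F2. Replicate 2 had the highest CDKN1A level in all 12 groups. With the replicate number as a block, in comparisons where the numbers paired the libraries, CDKN1A was called lower in F2, at -0.24 (adjusted p = 0.000252), and higher in 42D sgT33-5, at 0.15 (adjusted p = 0.002). Without the filter on low counts, the F2 value was -0.23 (adjusted p = 0.00456).

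Line by line, R1881 called 15 genes in 42D sgT33-5, 6 higher and 9 lower, where 27.3% of all genes were called (14.1% higher and 13.2% lower). In 42D NT3 it called 10, 5 higher and 5 lower, against 25.3% of all genes (13.9% higher and 11.4% lower). In C2 it called 7, 3 higher and 4 lower, against 5.66% of all genes (3.6% higher and 2.06% lower). In F2 it called 9, 4 higher and 5 lower, against 10.4% of all genes (6.4% higher and 3.98% lower). In LNCaP sgT33-5 it called 12, 5 higher and 7 lower, against 12.5% of all genes (6.78% higher and 5.7% lower). In LNCaP NT3 it called 9, 4 higher and 5 lower, against 13.2% of all genes (8% higher and 5.15% lower). As shares of the 35 tested genes these were 42.9% in sgT33-5 and 28.6% in NT3 of 42D, and 20%, 25.7%, 34.3% and 25.7% in C2, F2, sgT33-5 and NT3 of LNCaP. In 42D NT3 the share was near that of all genes. The count in C2 was 4 without DMSO replicate 2 or without R1881 replicate 3. Where the replicate numbers paired the libraries, the fit with the replicate block called 21 in 42D NT3 (8 higher and 13 lower, 33.4% of all genes), 14 in F2 (5 and 9, 15.8%) and 14 in LNCaP NT3 (7 and 7, 18.7%). The libraries of 42D sgT33-5 were paired by number too, and their count with the block is not given here. In LNCaP NT3 the added genes were PMAIP1, AEN and GDF15, called higher, and SESN2 and DDB2, called lower.

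The remaining calls were made in at most 3 of the lines each. PMAIP1, the death protein NOXA, rose in both 42D lines, with 28.8, 21.8 and 26.4 CPM with R1881 and 13.2, 11.7 and 15.3 CPM with DMSO in NT3 (0.95, SE 0.18, adjusted p = 0.00209). The log2 fold change in 42D sgT33-5 was 0.86 (SE 0.19). In LNCaP NT3 its log2 fold change was 0.78 (SE 0.31, adjusted p = 0.127), and with the replicate block 0.81 (adjusted p = 4.45e-08). BBC3, the death protein PUMA, fell in both 42D lines (-0.69, SE 0.24, adjusted p = 0.0379, in sgT33-5 and -0.76, SE 0.23, adjusted p = 0.0185, in NT3), at 0.857 to 2.71 CPM in the 42D libraries. DESeq2 made neither BBC3 call. In sgT33-5 the call was also lost without R1881 replicate 3 or without DMSO replicate 1 or 3 (adjusted p of 0.0905 to 0.187), and in NT3 without R1881 replicate 3 or DMSO replicate 2 (0.101 and 0.0697).

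FAS, a death receptor gene, fell in 42D sgT33-5 (-0.73, SE 0.17), F2 (-0.63, SE 0.14) and LNCaP sgT33-5 (-0.60, SE 0.14), at group means of 4.4 to 8.08 CPM. GADD45A, a stress sensor that slows the cell cycle, fell in C2 (-0.48, SE 0.13, adjusted p = 0.0221), LNCaP sgT33-5 (-0.42, SE 0.13, adjusted p = 0.0416) and LNCaP NT3 (-0.49, SE 0.14, adjusted p = 0.0171). The call was lost in C2 without any library but DMSO replicate 3, in sgT33-5 without any but R1881 replicate 1, and in NT3 without replicate 1 or 2 of DMSO or 1 or 3 of R1881 (adjusted p of 0.0507 to 0.195). SESN1, a stress-induced inhibitor of mTORC1, fell in sgT33-5 (-0.31, SE 0.067) and NT3 (-0.33, SE 0.068) of LNCaP and rose in 42D sgT33-5 (0.22, SE 0.065, adjusted p = 0.0129). That last call was lost without R1881 replicate 1 (0.16, adjusted p = 0.0953).

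CCNG1, cyclin G1, fell in 42D NT3 (-0.22, SE 0.046) and LNCaP sgT33-5 (-0.23, SE 0.054). GDF15, a secreted stress cytokine, rose in LNCaP sgT33-5 with 128, 120.4 and 138 CPM with R1881 and 65.3, 54.8 and 90.0 CPM with DMSO (0.87, SE 0.24, adjusted p = 0.0219). Its call was lost without any 1 of 4 of these libraries, namely DMSO replicates 1 and 2 and R1881 replicates 1 and 3, where the adjusted p was 0.0504 to 0.12. PHLDA3, a repressor of AKT signalling, fell in F2 (-0.33, SE 0.088, adjusted p = 0.0138), a call lost without replicate 3 of DMSO (-0.28, adjusted p = 0.0936) or of R1881 (-0.25, adjusted p = 0.127).

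In 42D sgT33-5, PLK3 (-0.37, SE 0.11), DDB2 (-0.26, SE 0.090), MDM4 (-0.16, SE 0.044) and XPC (-0.15, SE 0.053) also fell. PLK3 is a polo-like kinase of the stress response, and DDB2 and XPC recognise ultraviolet damage in DNA. DESeq2 did not call DDB2, XPC or PLK3 there. XPC was also lost without R1881 replicate 1 or any 1 of the DMSO libraries (adjusted p of 0.0631 to 0.281), and DDB2 without R1881 replicate 3 or DMSO replicate 1 or 2 (0.103 to 0.218). Genes of the pathway without a call had log2 fold changes between -0.44 and 0.78 over the 6 lines.

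The response itself was then compared between lines. The responses of C2, F2 and sgT33-5 in LNCaP were each set against the same NT3 libraries, so these 3 tests are not independent of each other. In C2 the response of TNFRSF10B was weaker, with a difference of -0.48 (SE 0.080, adjusted p = 0.00157), with 298, 299 and 333 CPM with R1881 and 234, 229 and 241 CPM with DMSO. This was 1 of the 35 genes, called lower, where 0.689% of all genes were called (0.0967% higher and 0.593% lower). It was called in every alternative run, each library left out included, at an adjusted p of at most 0.0165. In F2 and in sgT33-5 of LNCaP, edgeR called 0 of 35 genes, and 0% of all genes in each. At an unadjusted p under 0.05 there were 2 in each, and DESeq2 called 0 of the 35 in each. In 42D sgT33-5 against NT3 the count was 0 (0.123% of all genes), with 3 at an unadjusted p under 0.05 and 0 by DESeq2.

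Between cell lines, the NT3 response differed for 3 genes (3.85% of all genes called). In 42D relative to LNCaP, TNFRSF10B responded more strongly, with a difference of 0.41 (SE 0.079, adjusted p = 0.000649). BTG1 responded less (-0.77, SE 0.12, adjusted p = 9.72e-05), and TP53INP1 fell further (-0.64, SE 0.081, adjusted p = 7.75e-07). In the sgT33-5 lines 6 genes differed (5.29% of all genes), a comparison added after the data were seen. TNFRSF10B (0.55, SE 0.079), BTG1 (-0.72, SE 0.12) and TP53INP1 (-0.55, SE 0.081) were among them. SESN1 was the only gene called in opposite directions by R1881 in lines of the 2 cell lines, with a difference of 0.52 (SE 0.10, adjusted p = 0.000292). PLK2 (0.58, SE 0.16, adjusted p = 0.0218) and PLK3 (-0.65, SE 0.19, adjusted p = 0.0287) were called too, but not without the libraries of low mitochondrial share, at adjusted p of 0.118 and 0.171. The PLK3 call was lost without any 1 of 9 of the 12 libraries, and that of PLK2 without DMSO replicate 3 of 42D, or DMSO replicate 3 or R1881 replicate 2 of LNCaP (0.0791 to 0.168).

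The 3 LNCaP guide lines were compared with the same NT3 libraries at each treatment, so their results are given side by side and are not independent. All 3 carry the name of 1 guide, so an effect of the guide cannot be told apart from other differences between the lines. BTG1 was lower in each guide line. With R1881 it had 99.2, 100.1 and 98.5 CPM in C2, 119, 147 and 130.1 CPM in F2 and 177, 162 and 187 CPM in sgT33-5, against 261, 246 and 258 CPM in NT3. No library of a guide line reached the lowest NT3 library. The log2 fold change was -1.35 (SE 0.094) in C2, -0.95 (SE 0.093) in F2 and -0.53 (SE 0.092, adjusted p = 0.00132) in sgT33-5.

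With DMSO, BTG1 had 44.7, 41.8 and 50.2 CPM in C2, 58, 60.8 and 62.1 CPM in F2 and 74.2, 72.9 and 98.7 CPM in sgT33-5, against 137, 121 and 145 CPM in NT3. The groups were again separate. The log2 fold change was -1.56 (SE 0.10, adjusted p = 1.01e-10) in C2, -1.15 (SE 0.10, adjusted p = 1.57e-08) in F2 and -0.71 (SE 0.10, adjusted p = 0.000115) in sgT33-5. The C2 libraries with R1881 stood below all DMSO libraries of NT3. The gene overlaps the long noncoding genes LINC01619 and BTG1-DT, which averaged 1.67 and 1.44 CPM over all libraries.

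PHLDA3 was higher in F2. With R1881 it had 38, 38.8 and 32.5 CPM in F2 and 21.3, 22.1 and 23.8 CPM in NT3 (0.70, SE 0.094), and with DMSO 45.2, 42.6 and 48.4 CPM in F2 and 25.2, 26.8 and 26.3 CPM in NT3 (0.80, SE 0.091, adjusted p = 5.78e-07). The F2 libraries were separate from those of NT3 at both treatments. In C2 the log2 fold change was 0.33 (SE 0.095, adjusted p = 0.0124) with R1881, where the groups overlapped, and 0.32 (SE 0.093, adjusted p = 0.0164) with DMSO. In sgT33-5 it was 0.35 (SE 0.10, adjusted p = 0.044) with R1881 and 0.17 (SE 0.094, adjusted p = 0.495) with DMSO. Each call in C2 was lost without any 1 of 3 libraries, at adjusted p of 0.0509 to 0.0804. With R1881 these were replicates 2 and 3 of C2 and 1 of NT3, and with DMSO replicates 1 and 3 of C2 and 1 of NT3.

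In C2, BTG1 and PLK2 had the largest changes of the called genes, both lower than in NT3, while genes with smaller changes went in both directions. In C2 given R1881, 10 genes were called, 4 higher and 6 lower, where 23% of all genes were called (9.67% higher and 13.3% lower). In C2 given DMSO it was 8, 2 higher and 6 lower, against 18.2% of all genes (8.53% higher and 9.63% lower). As shares of the 35 tested genes these were 28.6% with R1881 and 22.9% with DMSO, near those of all genes. PLK2 had 10.8, 11.1 and 11.4 CPM with R1881 in C2, against 30.1, 32.2 and 30.5 CPM in NT3, a log2 fold change of -1.47 (SE 0.12, adjusted p = 3.54e-10). It was -1.42 (SE 0.14) with DMSO. BAX, the pore-forming protein of mitochondrial apoptosis, had 16.8, 17.6 and 18.9 CPM with R1881 in C2, against 28.5, 28.4 and 28.4 CPM in NT3 (-0.67, SE 0.083, adjusted p = 7.99e-07). With DMSO it had 17.3, 17.6 and 15.7 CPM in C2 and 24.9, 27.3 and 26.8 CPM in NT3 (-0.64, SE 0.084). For PLK2 and BAX all C2 libraries lay below all NT3 libraries.

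SESN1 had 61.5, 57.8 and 59.2 CPM with DMSO in C2, against 76.9, 85.5 and 74 CPM in NT3 (-0.40, SE 0.068, adjusted p = 0.00012). With R1881 it was -0.23 (SE 0.068, adjusted p = 0.0135), and this call was lost without any 1 of 4 libraries, namely replicates 1 and 3 of C2 and 1 and 2 of NT3, at adjusted p of 0.0514 to 0.0957. SPATA18, a regulator of mitochondrial quality, was higher in C2, at 0.76 (SE 0.14, adjusted p = 0.000315) with R1881 and 0.55 (SE 0.14, adjusted p = 0.0087) with DMSO. With R1881, TNFRSF10B (-0.35, SE 0.057) and PPM1D (-0.39, SE 0.087) were lower, and PLK3 (0.60, SE 0.15) and DDB2 (0.33, SE 0.087) were higher. The DDB2 call was lost without NT3 replicate 2 (0.26, adjusted p = 0.0584). With DMSO, CCNG2 (-0.40, SE 0.11, adjusted p = 0.0173) and TP53INP1 (-0.19, SE 0.058, adjusted p = 0.0209) were lower.

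Leaving out C2 replicate 1 lowered the DMSO count of C2 to 5, and leaving out NT3 replicate 1 lowered it to 4 and also ended the SPATA18 call (0.44, adjusted p = 0.0716). Either library ended the calls of PHLDA3, CCNG2 and TP53INP1. Those of CCNG2 and TP53INP1 were also lost without C2 replicate 3 or NT3 replicate 2, at adjusted p of 0.0557 to 0.128.

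In F2, the genes called were higher than in NT3, apart from BTG1. In F2 given R1881, 7 genes were called, 6 higher and 1 lower, where 13.4% of all genes were called (6.19% higher and 7.26% lower). In F2 given DMSO it was 10, 9 higher and 1 lower, against 16.7% of all genes (8.94% higher and 7.73% lower). As shares of the 35 tested genes these were 20% with R1881 and 28.6% with DMSO. SPATA18 had 6.13, 6.67 and 6.98 CPM with R1881 in F2, against 3.57, 4.19 and 3.2 CPM in NT3 (0.85, SE 0.14, adjusted p = 0.000171). It was 0.83 (SE 0.14) with DMSO. SESN1 had 91.4, 104 and 93.2 CPM with R1881 in F2, against 64.4, 66 and 59 CPM in NT3 (0.61, SE 0.067, adjusted p = 3.88e-07). With DMSO it had 99.9, 114 and 103 CPM in F2 and 76.9, 85.5 and 74 CPM in NT3 (0.42, SE 0.066). Neither pair of SESN1 groups overlapped.

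CDKN1A was called in F2 with DMSO, where it had 139, 158 and 156 CPM, against 104, 126 and 107 CPM in NT3 (0.43, SE 0.10, adjusted p = 0.00328). With R1881 its log2 fold change was 0.13 (SE 0.10, adjusted p = 0.422). TP53I3, a quinone oxidoreductase linked to oxidative stress, was higher at both treatments (0.78, SE 0.21, adjusted p = 0.0152, with R1881 and 0.62, SE 0.21, adjusted p = 0.0381, with DMSO), at group means of 3.64 and 3.75 CPM in F2 against 2.12 and 2.45 CPM in NT3. With R1881, DDB2 (0.29, SE 0.088) and TP53INP1 (0.24, SE 0.059) were higher. With DMSO, FAS (0.52, SE 0.14), FDXR (0.37, SE 0.11), BAX (0.24, SE 0.080, adjusted p = 0.0397) and RPS27L (0.17, SE 0.057, adjusted p = 0.0363) were also higher. FDXR is a mitochondrial reductase that supplies electrons to ferredoxin.

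Several of these calls depended on single libraries. With R1881, DDB2 was lost without F2 replicate 1 or NT3 replicate 1 or 2 (adjusted p of 0.0516 to 0.148), and TP53I3 without F2 replicate 1 or NT3 replicate 1 or 3 (0.0525 to 0.0692). The count with DMSO was 6 without F2 replicate 1 and 5 without NT3 replicate 1, and with either left out FAS, FDXR, BAX, RPS27L and TP53I3 were no longer called. BAX was lost without any 1 of the 6 libraries compared, at adjusted p of 0.0597 to 0.195. TP53I3 was also lost without F2 replicate 2 or NT3 replicate 3, and RPS27L without replicate 3 of either line. The replicate numbers paired the DMSO libraries, and the fit with the replicate block called 19 genes (17 higher and 2 lower, 25.3% of all genes). It added SESN2 (0.40, adjusted p = 3.5e-06), BTG2 (0.31, adjusted p = 0.00169), BBC3 (0.51, adjusted p = 0.0307), AEN, PLK3, ZMAT3, TNFRSF10B and DDB2 to those that were higher, and CCNG2 to those that were lower.

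In LNCaP sgT33-5 given R1881, 3 genes were called, 2 higher and 1 lower, where 3.04% of all genes were called (0.979% higher and 2.06% lower). In sgT33-5 given DMSO it was also 3, 2 higher and 1 lower, against 1.4% of all genes (0.509% higher and 0.889% lower). At each treatment 8.57% of the 35 tested genes were called. With R1881 they were BTG1, PHLDA3 and PLK3, which had 7.02, 5.9 and 6.23 CPM in sgT33-5 and 4.02, 4.92 and 3.87 CPM in NT3 (0.58, SE 0.15, adjusted p = 0.0355). With DMSO they were BTG1, RPS27L (0.23, SE 0.057, adjusted p = 0.0315) and CCNG1, which had 314, 334 and 347 CPM in sgT33-5 against 268, 277 and 263 CPM in NT3 (0.31, SE 0.054, adjusted p = 0.00182). The CCNG1 groups did not overlap. RPS27L was lost without replicate 2 or 3 of sgT33-5 or 1 or 3 of NT3 (adjusted p of 0.113 to 0.187).

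The R1881 count in sgT33-5 was 1 without sgT33-5 replicate 1, of low mitochondrial share, with PHLDA3 at 0.27 (adjusted p = 0.266) and PLK3 at 0.51 (adjusted p = 0.181). It was also 1 without sgT33-5 replicate 2 or NT3 replicate 1, and both calls were lost without sgT33-5 replicate 3 too. PHLDA3 was lost without NT3 replicate 2 and PLK3 without NT3 replicate 3 (adjusted p of 0.142 and 0.118). In a fit of only the libraries compared, BTG1 with DMSO missed the threshold (-0.71, adjusted p = 0.0617). The replicate numbers paired the R1881 libraries, and the block fit called 7 there (3 higher and 4 lower, 8.14% of all genes), adding SESN2 as higher and PLK2, CCNG2 and PPM1D as lower.

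**Figure D3:**
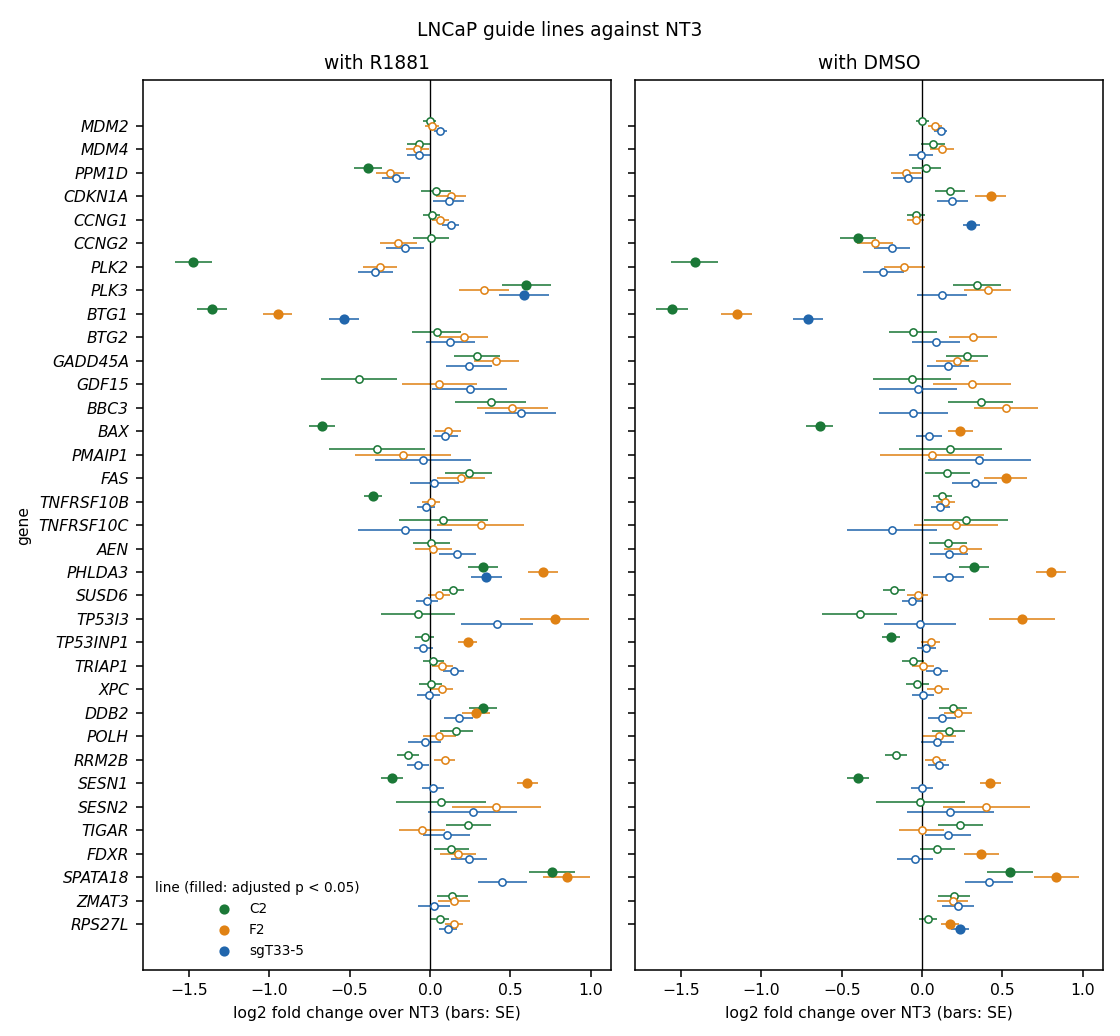
Log2 fold change of C2, F2 and sgT33-5 over NT3 in LNCaP (x axis, bars are SE) for the 35 tested genes, with R1881 (left) and with DMSO (right); filled points passed an adjusted p of 0.05. BTG1 lies left of 0 in all guide lines, PLK2 and BAX left of 0 in C2, and PHLDA3, SPATA18 and SESN1 right of 0 in F2.

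MDM2 was called in no guide comparison. Its log2 fold change lay at -0.0016 in C2, 0.013 in F2 and 0.065 in sgT33-5 with R1881, and at 0.0018 (SE 0.041) in C2, 0.081 (SE 0.041) in F2 and 0.12 (SE 0.041) in sgT33-5 with DMSO. CDKN1A in C2 was 0.038 (SE 0.10) with R1881 and 0.17 (SE 0.10) with DMSO, and in sgT33-5 0.12 (SE 0.10) with R1881 and 0.19 (SE 0.10) with DMSO.

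C2 and F2 were also compared with each other, a comparison added after the data were seen, and without a replicate block all called genes were lower in C2. With R1881, 9 genes were lower in C2 than in F2 and 0 higher (21% of all genes called, 11.7% lower and 9.26% higher). With DMSO, 8 were lower and 0 higher (18.1% of all genes, 9.93% lower and 8.18% higher). As shares of the 35 tested genes these were 25.7% with R1881 and 22.9% with DMSO. BAX had 16.8, 17.6 and 18.9 CPM in C2 and 34.3, 27.8 and 30.1 CPM in F2 with R1881, a log2 fold change of -0.78 (SE 0.082, adjusted p = 6.3e-08), and -0.87 (SE 0.082) with DMSO. SESN1 had 53.4, 56 and 51 CPM in C2 and 91.4, 104 and 93.2 CPM in F2 with R1881 (-0.84, SE 0.067, adjusted p = 6.36e-10), and -0.82 (SE 0.067) with DMSO. No library of C2 overlapped with F2 for either gene.

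With DMSO, PLK2 (-1.31, SE 0.14), TP53I3 (-1.01, SE 0.21), PHLDA3 (-0.48, SE 0.089), BTG1 (-0.40, SE 0.10), TP53INP1 (-0.25, SE 0.058) and RRM2B (-0.24, SE 0.067) were the other genes lower in C2. RRM2B is a ribonucleotide reductase subunit that supplies nucleotides for repair. These 6 were also called with R1881, with TNFRSF10B in addition (-0.36, SE 0.057). The RRM2B call was lost with R1881 without replicate 1 or 3 of C2 or 3 of F2, and with DMSO without F2 replicate 2 (adjusted p of 0.0535 to 0.0797). The replicate numbers paired the DMSO libraries, and the block fit called 16 genes there (1 higher and 15 lower, 27.1% of all genes). CDKN1A was among the lower with the block (-0.26, adjusted p = 6.62e-05) and by DESeq2 (-0.27, adjusted p = 0.0435), against -0.25 (SE 0.094, adjusted p = 0.0674) by edgeR without the block. With R1881, CDKN1A stood at -0.093 (SE 0.095, adjusted p = 0.541) without the block. MDM2 stood at -0.015 (SE 0.041, adjusted p = 0.85) with R1881 and -0.079 (SE 0.041, adjusted p = 0.199) with DMSO, also without the block.

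In 42D, sgT33-5 and NT3 differed in 0 of 35 genes with R1881 (0.513% of all genes called) and 0 with DMSO (1.13%) by edgeR. At an unadjusted p under 0.05 there were 8 with R1881 and 5 with DMSO, and DESeq2 called 0 with R1881 and 1 with DMSO. BTG1 had 249, 244 and 218 CPM with R1881 in sgT33-5, against 217, 201 and 198 CPM in NT3, and sgT33-5 stood above NT3. With DMSO it had 173, 177 and 195 CPM in sgT33-5 and 189.6, 173 and 191 CPM in NT3, and these groups overlapped. BTG1 had a log2 fold change of 0.20 (SE 0.056, adjusted p = 0.189) with R1881 and -0.014 (SE 0.056, adjusted p = 0.976) with DMSO. Whether the BTG1 difference between sgT33-5 and NT3 was itself unlike in 42D and LNCaP was not tested. MDM2 was at 0.021 (SE 0.039) with R1881 and 0.036 (SE 0.039) with DMSO, and CDKN1A at 0.27 (SE 0.14) with R1881 and 0.19 (SE 0.14) with DMSO.

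The R1881 libraries of 42D were paired by number, and the block fit called 7 genes between sgT33-5 and NT3 (5 higher and 2 lower, 2.15% of all genes). CDKN1A (0.28, SE 0.039, adjusted p = 1.68e-05), SPATA18 (0.34), SESN1 (0.23), TP53INP1 (0.21) and RPS27L (0.19) were higher, and MDM4 (-0.19) and PMAIP1 (-0.31) lower. Without replicate 3 of sgT33-5 with R1881, the fit with no block called 3. With DMSO it called 1 without replicate 1 of sgT33-5 or of NT3.

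**Figure D4:**
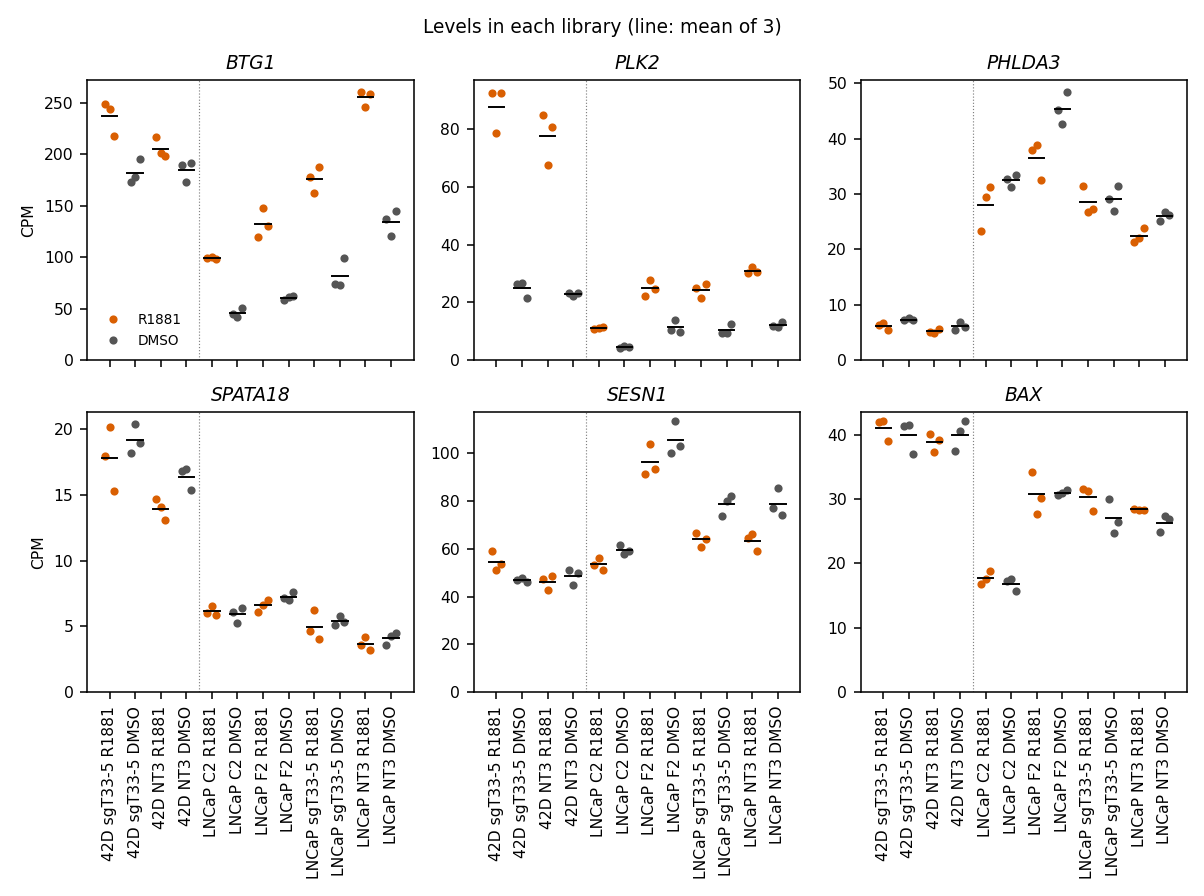
CPM of BTG1, PLK2, PHLDA3, SPATA18, SESN1 and BAX in every library (points; R1881 orange, DMSO grey), with the mean of 3 as a line and 42D left of the dotted line. BTG1 is lowest in C2 with DMSO (45.6 CPM on average), and BAX in C2 lies below all other LNCaP groups.

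Between the cell lines, most pathway genes differed. In 42D NT3 against LNCaP NT3 with R1881, 25 of 35 genes were called (12 higher and 13 lower), or 71.4%, near the 68.9% of all genes called. With DMSO it was 26 (14 higher and 12 lower), or 74.3% against 68.1% of all genes. The endothelial marker VWF also differed, with 1.26 ± 0.306 CPM in 42D NT3 and 20.7 ± 0.249 CPM in LNCaP NT3 with DMSO, while PECAM1 and CDH5 were at or near 0 in both.

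PHLDA3 had 5.49, 6.8 and 5.98 CPM with DMSO in 42D, against 25.2, 26.8 and 26.3 CPM in LNCaP (-2.10, SE 0.11, adjusted p = 6.32e-19). GDF15 had 18.9, 23.5 and 24.5 CPM with DMSO in 42D and 58.8, 65.4 and 90.4 CPM in LNCaP (-1.68, SE 0.23, adjusted p = 5.8e-07). All 42D libraries lay below all LNCaP libraries for both. With R1881 the log2 fold change was -2.11 (SE 0.11) for PHLDA3 and -2.26 (SE 0.23) for GDF15. SUSD6 (-0.76, SE 0.064), TIGAR (-0.70, SE 0.15), SESN1 (-0.70, SE 0.068), TRIAP1 (-0.59, SE 0.065), CCNG2 (-0.42, SE 0.12), TP53INP1 (-0.35, SE 0.057), RRM2B (-0.34, SE 0.066), MDM2 (-0.30, SE 0.039), TNFRSF10B (-0.28, SE 0.057) and CCNG1 (-0.28, SE 0.053) were also lower in 42D with DMSO. TIGAR is a phosphatase that restrains glycolysis, and TRIAP1 an inhibitor of apoptosis.

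SPATA18 had 16.8, 16.9 and 15.4 CPM with DMSO in 42D, against 3.56, 4.23 and 4.46 CPM in LNCaP (2.01, SE 0.12, adjusted p = 9.86e-17). TP53I3 had 8.12, 9.93 and 8.6 CPM in 42D and 2.57, 3.09 and 1.68 CPM in LNCaP (1.86, SE 0.17, adjusted p = 2.43e-12). BTG2, an antiproliferative relative of BTG1, had 115, 88.9 and 96 CPM in 42D and 39.8, 36.9 and 42.9 CPM in LNCaP (1.33, SE 0.15, adjusted p = 1.44e-08). All 3 were higher in every 42D library than in any LNCaP NT3 library with DMSO. PLK3 (1.03, SE 0.13), AEN (1.01, SE 0.10), a nuclease that promotes apoptosis, PLK2 (0.90, SE 0.12), GADD45A (0.78, SE 0.13), FDXR (0.76, SE 0.10), BAX (0.60, SE 0.075) and POLH (0.56, SE 0.10), a polymerase that copies past ultraviolet damage, were higher too. BTG1 (0.46, SE 0.088), FAS (0.36, SE 0.16), DDB2 (0.29, SE 0.091) and MDM4 (0.17, SE 0.065) completed the list. The FAS call was lost without replicate 1 or 3 of 42D or 1 of LNCaP, and that of MDM4 without replicate 1 or 3 of 42D or 2 of LNCaP (adjusted p of 0.0545 to 0.18).

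The direction differed between the treatments for 2 genes. BTG1 was lower in 42D with R1881 (-0.31, SE 0.086, adjusted p = 0.00205) and higher with DMSO. TNFRSF10B was higher in 42D with R1881 (0.13, SE 0.055, adjusted p = 0.0369) and lower with DMSO. The TNFRSF10B call with R1881 was lost without replicate 3 of 42D (0.10, adjusted p = 0.145) or replicate 1 of LNCaP (0.12, adjusted p = 0.0838). FAS and MDM4 were not called with R1881, at 0.21 (SE 0.17, adjusted p = 0.278) and 0.11 (SE 0.064, adjusted p = 0.131). BBC3 was called with R1881 only, lower in 42D (-0.68, SE 0.25, adjusted p = 0.0174), at group means of 1.4 CPM in 42D and 2.24 CPM in LNCaP. The remaining genes called with DMSO kept their direction with R1881, as for TP53INP1 (-0.99, SE 0.059), CCNG2 (-0.86, SE 0.13) and PLK2 (1.33, SE 0.10). MDM2 had 192, 199 and 193 CPM with DMSO in 42D and 241, 239 and 239.5 CPM in LNCaP, a small difference between groups that did not overlap. It was lower in 42D with R1881 too (-0.36, SE 0.039, adjusted p = 3.67e-10). CDKN1A was not called at either treatment, at -0.17 (SE 0.12, adjusted p = 0.191) with R1881 and -0.15 (SE 0.12, adjusted p = 0.256) with DMSO. Without the filter on low counts it was called lower with R1881 (-0.16, adjusted p = 0.0333) and with DMSO (-0.15, adjusted p = 0.0487), and with DMSO also without 42D replicate 2 (-0.29, adjusted p = 0.0432).

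**Figure D5:**
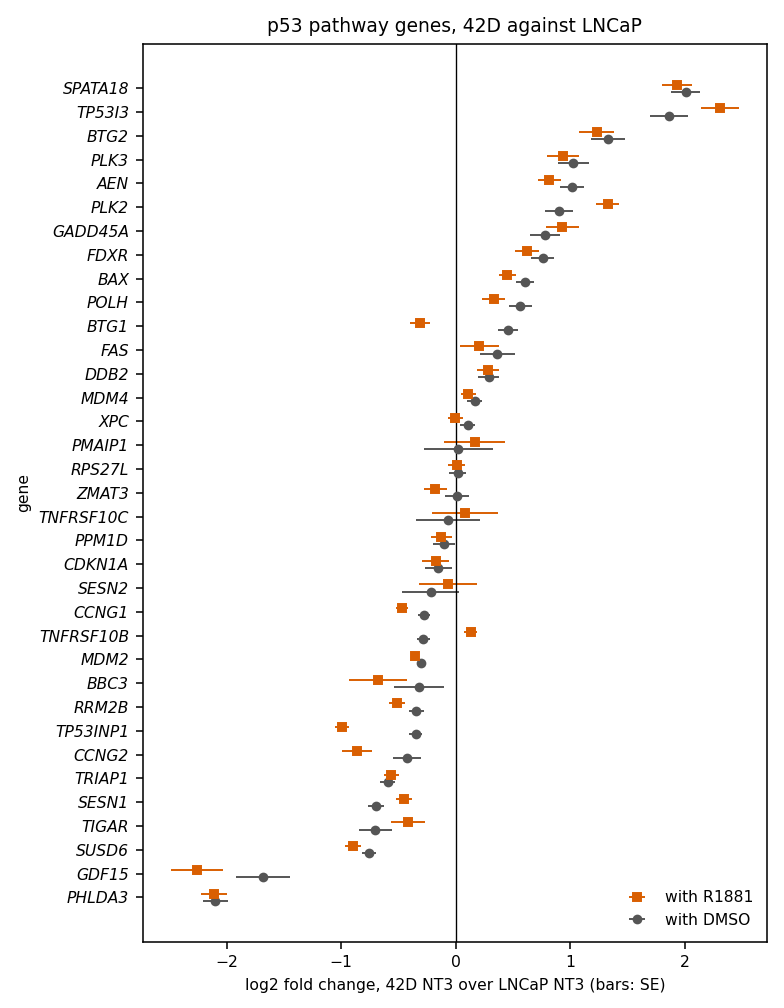
Log2 fold change of 42D NT3 over LNCaP NT3 (x axis, bars are SE) for the 35 tested genes with R1881 (orange squares) and DMSO (grey circles), ordered by the DMSO value. PHLDA3 and GDF15 lie farthest left and SPATA18 and TP53I3 farthest right, and BTG1 and TNFRSF10B change sides with treatment.

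Genes around the pathway were read from 3 lists: 16 regulators and kinases of p53 and MDM2, 55 further p53 targets, and 12 cell cycle genes that p21 and the DREAM complex are known to lower. CHEK1 is in both the regulator and the cell cycle list. Of the 16 regulators, R1881 called 4 in 42D sgT33-5 (1 higher and 3 lower), 4 in 42D NT3 (2 and 2), 2 in F2 (2 and 0), 1 in LNCaP sgT33-5 (1 and 0) and 2 in LNCaP NT3 (1 and 1). As shares of the 16 these were 25% in both 42D lines, against 27.3% of all genes in sgT33-5 and 25.3% in NT3. In F2, sgT33-5 and NT3 of LNCaP they were 12.5%, 6.25% and 12.5%, against 10.4%, 12.5% and 13.2% of all genes. In C2, edgeR called 0, with 1 at an unadjusted p under 0.05 and 1 called by DESeq2. HIPK2, a kinase that phosphorylates p53, rose in 42D sgT33-5 (1.16, SE 0.11), 42D NT3 (1.17, SE 0.11), F2 (0.58, SE 0.16), LNCaP sgT33-5 (0.70, SE 0.16) and LNCaP NT3 (0.86, SE 0.16).

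Of the further p53 targets, R1881 called 22 of 50 tested in 42D sgT33-5 (10 higher and 12 lower) and 23 in 42D NT3 (7 and 16). Of 49 tested in LNCaP it called 4 in C2 (0 and 4), 8 in F2 (2 and 6), 7 in sgT33-5 (2 and 5) and 8 in NT3 (2 and 6). In 42D these were 44% of the list in sgT33-5, where 27.3% of all genes were called, and 46% in NT3, against 25.3% of all. In LNCaP they were 8.16% in C2, 16.3% in F2, 14.3% in sgT33-5 and 16.3% in NT3, against 5.66%, 10.4%, 12.5% and 13.2% of all genes. RAP2B, a small GTPase, fell in all 6 lines, with -1.13 (SE 0.068) in C2 and -1.37 (SE 0.073) in NT3 of LNCaP, and -0.46 (SE 0.062) in sgT33-5 and -0.41 (SE 0.062) in NT3 of 42D. ARHGEF3, an exchange factor for RhoA, fell in sgT33-5 (-1.19, SE 0.088) and NT3 (-1.23, SE 0.087) of 42D and in sgT33-5 (-0.46, SE 0.14) and NT3 (-0.49, SE 0.14) of LNCaP. It was -0.40 (SE 0.16, adjusted p = 0.195) in C2 and -0.23 (SE 0.13, adjusted p = 0.335) in F2. The cell cycle genes had 3 of 12 called in 42D sgT33-5 (1 higher and 2 lower), or 25%, against 27.3% of all genes. In 42D NT3 they had 5 (1 and 4), or 41.7%, against 25.3% of all genes. In each LNCaP line edgeR called 0 of 12, with 0 at an unadjusted p under 0.05 and 0 by DESeq2.

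Against NT3, C2 had 5 of 12 cell cycle genes (41.7%) called with R1881 and 3 of 12 (25%) with DMSO, all higher. Of all genes, 23% were called with R1881 (9.67% higher) and 18.2% with DMSO (8.53% higher). The median log2 fold change over the 12 was 0.34 at both treatments, against 0.00024 with R1881 and 0.0036 with DMSO over all genes. With DMSO, CDK1 (0.46, SE 0.13) and TOP2A (0.41, SE 0.13) were among the cell cycle genes called. F2 and sgT33-5 each had 0 of 12 by edgeR at both treatments, with 0 at an unadjusted p under 0.05 and 0 by DESeq2. CDKN2A, which encodes the MDM2 inhibitor ARF and the kinase inhibitor p16, was higher in F2 (0.80, SE 0.10, with R1881 and 0.96, SE 0.10, with DMSO) and in sgT33-5 (0.50, SE 0.10, with R1881 and 0.47, SE 0.10, with DMSO). Of the 49 further targets tested with R1881, C2 had 11 called (6 higher and 5 lower), F2 had 8 (6 and 2) and sgT33-5 had 2 (2 and 0), or 22.4%, 16.3% and 4.08%, against 23%, 13.4% and 3.04% of all genes. With DMSO, C2 had 10 (5 and 5), F2 had 11 (10 and 1) and sgT33-5 had 1 (1 and 0), or 20.4%, 22.4% and 2.04%, against 18.2%, 16.7% and 1.4% of all genes. PIDD1, a scaffold of death domain complexes, was the most raised in C2 (1.04, SE 0.15, with R1881 and 1.05, SE 0.14, with DMSO).

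In 42D NT3 against LNCaP NT3, 7 of 16 regulators were called under R1881 (3 higher and 4 lower) and 9 under DMSO (4 and 5), with CDKN2A lower (-1.35, SE 0.14, under R1881). Of 50 further targets, 37 were called with R1881 (18 and 19) and 39 with DMSO (22 and 17). The regulators called were 43.8% and 56.2% of their list and the further targets 74% and 78% of theirs, against 68.9% of all genes with R1881 and 68.1% with DMSO. The cell cycle list had 7 of 12 higher (58.3%) with R1881 and 9 of 12 (75%) with DMSO, with none lower, at median log2 fold changes of 0.34 with R1881 and 0.48 with DMSO.

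The median log2 fold change over the 35 tested pathway genes lay between -0.064 and 0.00047 under R1881 in the 6 lines, where that of all genes lay between -0.015 and -0.00094. Against NT3 with DMSO it was 0.19 in F2, with -0.0068 over all genes, 0.038 in C2 with 0.0036 and 0.095 in sgT33-5 with -0.0019. With R1881 it was 0.11 in F2, with -0.0072 over all genes, 0.021 in C2 with 0.00024 and 0.096 in sgT33-5 with -0.0081. For C2 over F2 it was -0.093 with R1881 and -0.13 with DMSO, where all genes had 0.0021 with R1881 and 0.0055 with DMSO.

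Some of these genes share sequence with neighbours on either strand. FAS overlaps STAMBPL1 and ACTA2, TNFRSF10B overlaps RHOBTB2, POLH overlaps GTPBP2, TP53INP1 overlaps NDUFAF6, TP53I3 overlaps FAM228B and RPS27L overlaps LACTB. The library kit keeps strand, but whether counting used it is not stated, so reads of overlapping genes cannot be told apart here. Neighbours at levels like those of the gene were found for FAS (5.94 CPM on average), with STAMBPL1 at 6.1 and ACTA2 at 3.61 CPM. The same held for POLH (29.3 CPM), with GTPBP2 at 35.8 CPM, and for TP53I3 (5.13 CPM), with FAM228B at 5.63 CPM. It also held for TNFRSF10C (1.32 CPM), which overlaps the long noncoding gene ENSG00000284948 (1.56 CPM) on the same strand.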

How the data were processed

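Polyadenylated RNA was sequenced with a stranded kit, per the labels' protocols. Reads were trimmed with cutadapt and aligned with HISAT2 2.1.0 to hg38, per the submitters' processing notes. The counting tool, its annotation and its strand setting are not given in the sources used here. The values used are whole-number gene counts as the authors deposited them. The table had 61806 rows, and 1 row without a gene name held 0 counts and was left out.

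Genes with low counts were removed by edgeR's filterByExpr, libraries were scaled by TMM, and edgeR's robust quasi-likelihood test (edgeR 4.0.16, R 4.3.3) was fitted without a replicate block. The 4 LNCaP lines were fitted together (15519 genes, 16 residual degrees of freedom), as were the 42D lines (15403 genes, 8). Comparisons between the cell lines used all 36 libraries (16564 genes, 24). P-values were adjusted by the Benjamini-Hochberg method over all genes tested, and a call means an adjusted p under 0.05. Standard errors (SE) were taken from the log2 fold change and its test statistic. The fits were tested on simulated data.

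Replicate libraries differed by more than sampling noise, with a chi-square of 2.73 to 26.6 per gene over the 36 pairs, so all were kept as separate samples. Replicate numbers were shared between groups, and they were taken to pair the libraries where the deviations of every same-numbered pair from the group means correlated above 0.1. This held in 9 of 24 comparisons, as in LNCaP NT3 under R1881 (0.14 to 0.45). Alternatives were RLE size factors, no filter, DESeq2 1.42.0, only the libraries compared, the replicate block, and each library left out. Leaving out the libraries of low mitochondrial share, C2 against F2, and the response of 42D sgT33-5 against that of LNCaP sgT33-5 were added after the data were seen. Genes of each comparison were named where they were called. For 42D NT3 against LNCaP NT3 with R1881, values are given for only some of the called genes. MDM2 and CDKN1A were reported whether called or not, though not with a value for every comparison. From the 3 lists at most 3 called genes with the greatest change per comparison were named. The members and lists were chosen with earlier results of these data known. A gene of the regulator list is counted there but not reported by itself here.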

Additional observations from a re-analysis of the deposited data

Results flagged for a closer look

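The response to R1881 differed between lines in 10 tests of the difference itself, all by edgeR's quasi-likelihood test. Each comparison tested 35 genes, and TNFRSF10B, BTG1 and TP53INP1 count in more than 1. For C2 against NT3, 2.86% of the 35 were called, against 0.689% of all genes. Between 42D and LNCaP it was 8.57% for NT3 (3.85% of all genes) and 17.1% for sgT33-5 (5.29%). The responses of F2 and of both sgT33-5 lines against NT3 had 0 calls. In C2 the TNFRSF10B response stood at -0.48 (SE 0.080, adjusted p = 0.00157) relative to that of NT3 on the log2 scale. In 42D NT3 relative to LNCaP NT3, the differences were 0.41 (SE 0.079) for TNFRSF10B, -0.64 (SE 0.081) for TP53INP1 and -0.77 (SE 0.12) for BTG1.

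In 42D sgT33-5 relative to LNCaP sgT33-5, the differences were 0.55 (SE 0.079) for TNFRSF10B, 0.52 (SE 0.10) for SESN1, -0.55 (SE 0.081) for TP53INP1, 0.58 (SE 0.16) for PLK2, -0.65 (SE 0.19) for PLK3 and -0.72 (SE 0.12) for BTG1. This last comparison was added after the data were seen and includes both libraries of low mitochondrial share in LNCaP. Without them PLK2 and PLK3 missed the threshold, and the other 4 genes were called.

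C2 and F2 stood on opposite sides of NT3 for 2 genes, so that every C2 library lay below and every F2 library above the NT3 libraries. With DMSO, C2 over F2 was -0.87 (SE 0.082) for BAX and -0.82 (SE 0.067) for SESN1. With R1881 it was -0.84 (SE 0.067) for SESN1. These differences between C2 and F2 were tested by edgeR, at an adjusted p of 1.28e-08 for BAX with DMSO, 8.84e-10 for SESN1 with DMSO and 6.36e-10 for SESN1 with R1881. The comparison of C2 with F2 was added after the data were seen. Of the calls against NT3 behind them, BAX in F2 had the highest adjusted p, 0.0397. That call was lost whichever of the compared libraries was left out. The call of SESN1 in C2 with R1881 was also lost without any of several single libraries.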

How the results depend on the processing

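Of 181 calls of pathway genes over the 24 comparisons, 138 held in every alternative run, 43 were lost in at least 1 and none reversed. Leaving out a library lost 40 of them, fitting only the libraries compared 11, DESeq2 8, no filter 7 and RLE size factors 1; the replicate block lost 0. Without single libraries, the number of pathway genes called was 4 to 8 for R1881 in C2, 5 to 11 for F2 against NT3 with DMSO, 4 to 10 for C2 against NT3 with DMSO and 1 to 2 for sgT33-5 against NT3 with R1881 in LNCaP. In 42D it was 0 to 3 for sgT33-5 against NT3 with R1881 and 0 to 1 with DMSO.

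With the replicate block, in comparisons where the numbers paired the libraries, the counts were 21 for R1881 in 42D NT3, 14 in F2 and 14 in LNCaP NT3. Against NT3 with the block they were 7 for LNCaP sgT33-5 with R1881, 19 for F2 with DMSO and 7 for 42D sgT33-5 with R1881, and 16 for C2 against F2 with DMSO. The numbers also paired the libraries for R1881 in 42D sgT33-5 and for C2 against NT3 with R1881, whose counts are not given. In the remaining comparisons at least 1 same-numbered pair did not correlate above 0.1. In LNCaP the median correlation was still 0.237 for C2 and 0.248 for sgT33-5 against NT3 with DMSO, and 0.316 for F2 against NT3 with R1881. For 42D NT3 against LNCaP NT3 it was 0.126 with R1881 and 0.0799 with DMSO. There the block gave 14 for F2 with R1881, 14 for C2 and 7 for LNCaP sgT33-5 with DMSO, 4 for 42D sgT33-5 with DMSO, 5 for the C2 response and 1 for the 42D sgT33-5 response. There it also called CDKN1A, lower in 42D NT3 than in LNCaP NT3 at -0.18 with R1881 and -0.16 with DMSO, and higher than NT3 with DMSO in LNCaP C2 (0.17), LNCaP sgT33-5 (0.19) and 42D sgT33-5 (0.19). The block ended no call.

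With only the libraries compared, sgT33-5 against NT3 in LNCaP had 1 call with R1881 and 1 with DMSO. Leaving out both libraries with a low mitochondrial share gave 1 with R1881. With no filter on low counts, 42D sgT33-5 against NT3 had 5 calls with R1881 and 3 with DMSO, the C2 response had 2, and the NT3 response of 42D against LNCaP had 6. DESeq2 called 1 gene for 42D sgT33-5 with DMSO. The cause of these shifts was not tested.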
